A study of Sus scrofa with 6 samples.

Results

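The mRNAs of 10 heat shock genes were followed in porcine oocytes. These were 2 heat shock transcription factors (HSF1 and HSF2), 3 HSP70 genes (HSPA6, HSPA8 and HSPA5), 2 genes of the related HSP110 group (HSPA4 and HSPH1), both cytosolic HSP90 genes (HSP90AA1 and HSP90AB1) and the mitochondrial HSP60 gene HSPD1. They were taken by symbol from the authors' table, and all 10 were found among its 29861 genes. Levels are in FPKM, the fragments of a gene scaled to the length of its transcript and to a measure of library size. Levels of different genes can therefore be set side by side. With the minimum mean of 1 FPKM that was used for the tests, 7 of the 10 genes were among the 4713 genes tested, whereas HSF1, HSF2 and HSPA4 lay below it.

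In the heat shock response, unfolded proteins draw HSP70 and HSP90 away from HSF1, which then forms trimers and binds heat shock elements upstream of chaperone genes. HSP70 proteins bind exposed stretches of unfolded proteins in an ATP cycle, HSP110 proteins exchange their nucleotide, HSP90 completes the folding of signalling proteins and kinases, and HSP60 folds proteins inside mitochondria. A fully grown oocyte is largely silent in transcription and lives on stored maternal mRNA until the embryo starts its own, and meiosis of the oocyte is sensitive to raised temperature.

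The 6 sequenced oocyte samples fell into 3 groups of 2, namely controls, heat stress, and heat stress with NMN. Control oocytes were matured without heat, heat-stressed oocytes spent the first 24 h of maturation at a raised temperature, and NMN-supplemented oocytes had the same heat with nicotinamide mononucleotide (NMN), a precursor of NAD+, in the medium. No group had NMN without heat, so the effect of NMN alone was not measured. The methods state pooled metaphase II oocytes, while the labels give the stage GV and 24 h for all 6 samples, and the oocytes came from ovaries collected at an abattoir. Nothing in the sources says that the 2 samples of a group came from separate cultures, so P-values measure the spread between these samples, which may be technical.

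Before the levels, the DNA upstream of the genes is shown, because heat shock elements are what HSF1 binds. The window was the 250 bases before the annotated gene start in the Sscrofa11.1 build of RefSeq, read 5′ to 3′ on the strand of the gene. HSP90AA1 had no window, since its annotation lies on an unplaced scaffold (bases 917500 to 921977) and is incomplete at the 5′ end. The letters searched on both strands were GAANNTTC and TTCNNGAA, which are 2 units of GAA in opposite orientation, and both of these sharing 1 unit, which makes 3 units (GAANNTTC running into TTCNNGAA through its TTC, or TTCNNGAA into GAANNTTC through its GAA). The windows of 3 genes with 3 units are printed with those of HSPA6, which had 3 separate pairs of units, and HSPA5, which had no match. Capitals mark the matching letters. The window of HSPA8 is chr9:49986761-49987010 (minus strand), that of HSP90AB1 chr7:39237049-39237298 (plus strand), that of HSPD1 chr15:101373499-101373748 (minus strand), that of HSPA6 chr4:88973110-88973359 (minus strand) and that of HSPA5 chr1:265934960-265935209 (minus strand).
HSPA8: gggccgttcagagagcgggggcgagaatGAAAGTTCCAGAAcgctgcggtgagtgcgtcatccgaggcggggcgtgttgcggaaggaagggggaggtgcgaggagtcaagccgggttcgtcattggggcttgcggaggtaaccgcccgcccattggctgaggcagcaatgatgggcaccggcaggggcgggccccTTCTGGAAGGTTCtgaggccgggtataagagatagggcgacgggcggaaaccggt
HSP90AB1: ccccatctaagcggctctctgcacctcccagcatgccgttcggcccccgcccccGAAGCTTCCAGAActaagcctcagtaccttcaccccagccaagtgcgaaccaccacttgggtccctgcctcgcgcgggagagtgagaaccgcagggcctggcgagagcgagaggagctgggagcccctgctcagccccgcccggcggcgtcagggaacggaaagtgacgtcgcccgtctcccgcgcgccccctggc
HSPD1: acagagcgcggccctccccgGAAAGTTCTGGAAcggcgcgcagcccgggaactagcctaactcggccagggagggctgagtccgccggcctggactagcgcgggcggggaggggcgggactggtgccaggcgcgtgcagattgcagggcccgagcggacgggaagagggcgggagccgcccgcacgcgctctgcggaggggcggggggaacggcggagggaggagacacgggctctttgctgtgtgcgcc
HSPA6: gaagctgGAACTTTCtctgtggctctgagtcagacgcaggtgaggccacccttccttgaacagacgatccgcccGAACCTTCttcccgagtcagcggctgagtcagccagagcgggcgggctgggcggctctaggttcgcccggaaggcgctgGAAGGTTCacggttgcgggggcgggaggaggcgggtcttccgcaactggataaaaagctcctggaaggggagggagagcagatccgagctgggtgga
HSPA5: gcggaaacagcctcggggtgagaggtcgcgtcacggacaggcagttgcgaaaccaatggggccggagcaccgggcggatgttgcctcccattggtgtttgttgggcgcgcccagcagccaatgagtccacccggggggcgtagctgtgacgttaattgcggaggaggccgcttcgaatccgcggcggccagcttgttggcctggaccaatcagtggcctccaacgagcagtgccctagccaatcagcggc

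HSPA8 held 2 runs of 3 units, from 222 to 210 and from 55 to 43 bases upstream of its start. HSP90AB1 held 1 such run from 196 to 184 bases upstream, and HSPD1 held 1 from 230 to 218 bases upstream. Among the 9 windows 3 thus had 3 units, beside 0.33% of 20308 promoters of the same length. GAANNTTC was found in 4 of the 9 windows and in 5.59% of the promoters, and TTCNNGAA in 4 of the 9 and in 5.80% of the promoters. The only match in HSPA4 was 1 TTCNNGAA, and no match was found in HSF1, HSF2, HSPA5 and HSPH1. A match shows the letters only, and no binding was measured. A second annotated start of HSP90AB1 had no match in its own window.

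**Figure D1:**
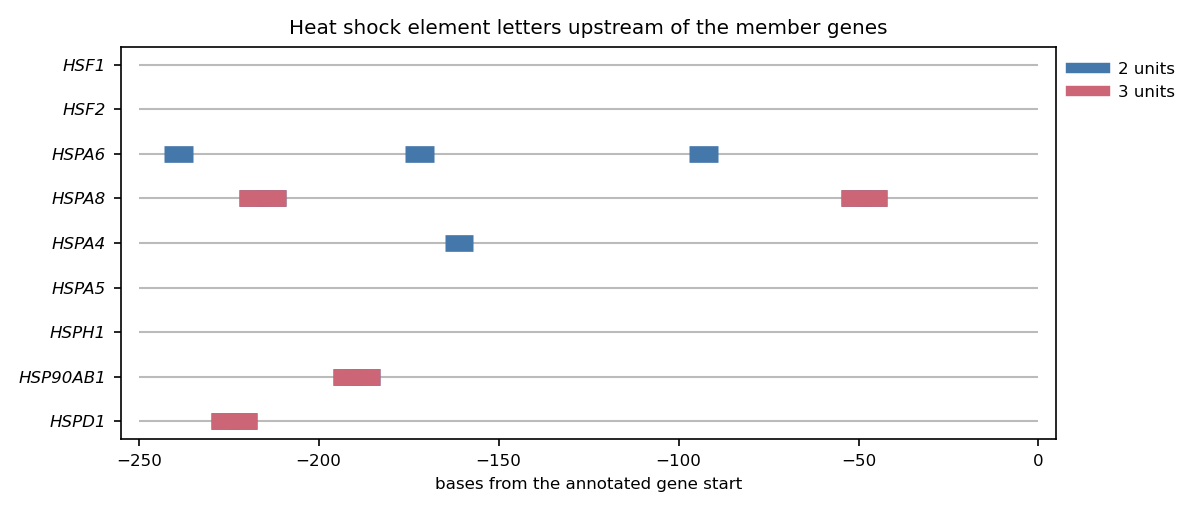
Position of heat shock element letters in the 250 bases upstream of 9 of the genes, with the distance from the annotated start on the x axis. Blue bars are pairs of units and red bars are runs of 3 units, which lie in HSPA8, HSP90AB1 and HSPD1.

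The 10 genes fell into 3 tiers of level. In control oocytes the mean was highest for HSP90AA1 with 58.8 ± 1.80 FPKM (SD, n = 2), followed by HSPA5 with 45.0 ± 4.77, HSPA8 with 43.2 ± 4.41 and HSP90AB1 with 32.5 ± 4.39. HSPA5 and HSPA8 did not differ beyond their spread. A second tier held HSPA6 (4.85 ± 0.392 FPKM), HSPD1 (2.01 ± 0.117) and HSPH1 (1.44 ± 0.0688), and the lowest tier held HSPA4 (0.414 ± 0.0418), HSF1 (0.334 ± 0.0982) and HSF2 (0.291 ± 0.207), which overlapped one another. These tiers were the same in the heat-stressed and the NMN-supplemented oocytes, but the order in the top tier was not: HSP90AA1 led in control and heat-stressed oocytes and HSP90AB1 in NMN-supplemented oocytes. By the mean of all 6 samples, HSP90AA1 ranked 226 and HSP90AB1 258 among the 29861 genes, whereas HSF1 ranked 9157. The summed FPKM of the 10 genes was 181 and 197 in the control samples, 152 and 166 under heat stress and 114 and 128 with NMN, with no overlap between the groups. As a share of all nuclear FPKM the groups did overlap, since the 10 genes took 0.140% in heat stress replicate 1 and 0.185 and 0.215% with NMN. Heat stress replicate 1 holds a nuclear pseudogene at a high level, and scaled to the same nuclear sum without that gene the values were 186 and 194, 137 and 178, and 114 and 133, again with no overlap.

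**Figure D2:**
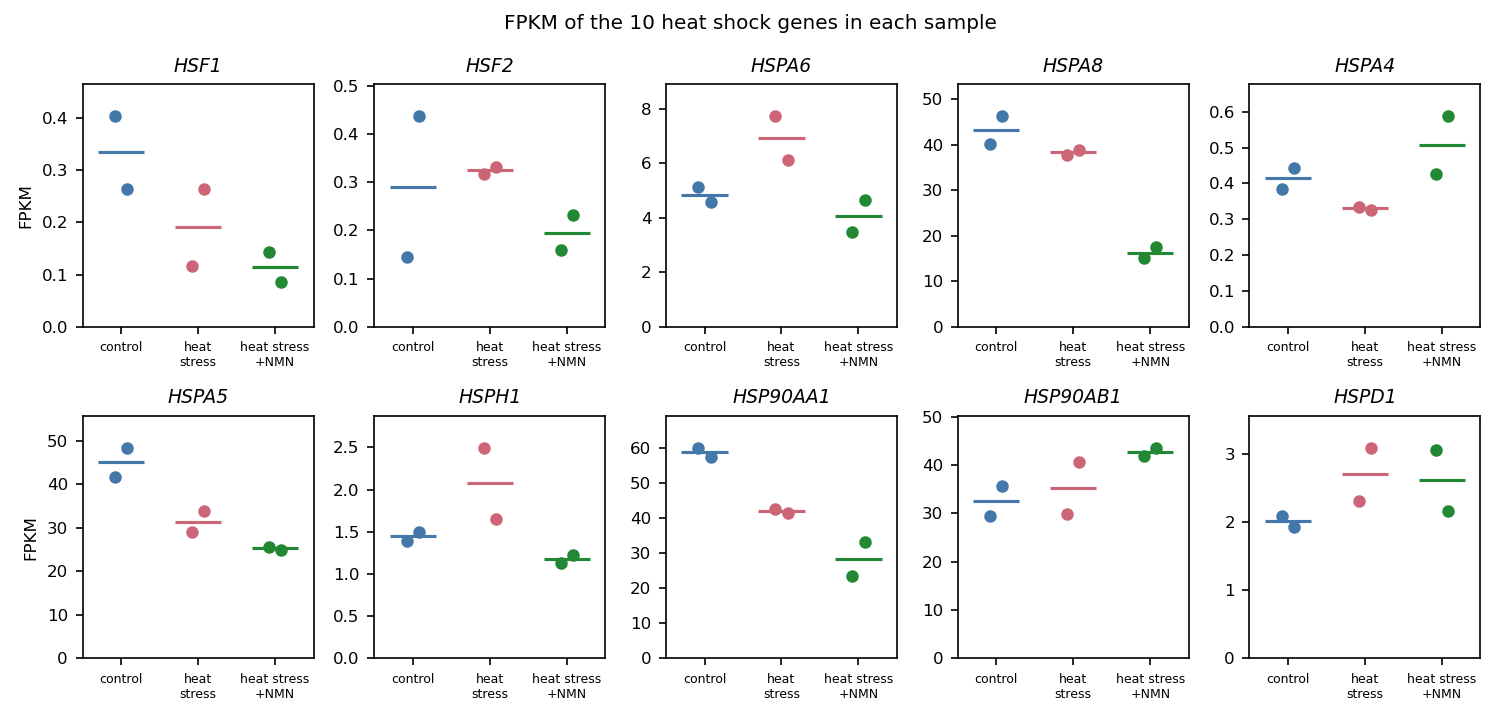
FPKM of each of the 10 genes in every sample, with 1 point per sample, a line at the mean of each group and a y axis that starts at 0 in each panel. HSPA8, HSPA5 and HSP90AA1 are lowest in both NMN-supplemented samples, and HSPA6 and HSPH1 are highest in both heat-stressed samples.

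The inducible HSP70 gene HSPA6 had a mean of 1.43 times the control level in heat-stressed oocytes, while HSPA5 of the endoplasmic reticulum and HSP90AA1 were at 0.697 and 0.714 times, none of which passed the test after adjustment. With NMN, HSPA8, HSPH1, HSPA6 and HSP90AA1 were at 0.425, 0.566, 0.585 and 0.674 times their heat-stressed level, and none of these passed either. Against controls, HSPA8, HSPA5 and HSP90AA1 fell, to 0.378, 0.562 and 0.481 times.

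Fold changes are log2 differences of FPKM + 1 from a limma fit of all 3 groups, which understates the change of genes with low levels. A gene passed the test when its P adjusted over all 4713 genes was under 0.05, and genes with an unadjusted P under 0.05 were counted apart. The 3 comparisons share samples, so they are not independent of each other. In heat-stressed against control oocytes, none of the 7 tested genes passed the test, and 3 had an unadjusted P under 0.05 (HSPA6 higher, HSPA5 and HSP90AA1 lower), beside 22.8% of all genes tested (12.7% higher and 10.1% lower). In NMN-supplemented against heat-stressed oocytes, none passed the test and 4 had an unadjusted P under 0.05, all lower (HSPA8, HSPA6, HSP90AA1 and HSPH1), beside 13.6% of all genes tested (7.15% higher and 6.45% lower). In NMN-supplemented against control oocytes, HSPA8, HSPA5 and HSP90AA1 passed the test and fell, beside 21.5% of all genes (9.17% lower), and the same 3 made up those with an unadjusted P under 0.05, beside 41.3% of all genes. With a minimum of 0.1 FPKM, HSPA8 still passed (adjusted P = 0.0477 in limma), but HSPA5 and HSP90AA1 did not (0.0519 and 0.0541), and with no minimum the 3 values were 0.0675, 0.0883 and 0.0939. Of all 4713 genes, limma gave 0 with an adjusted P under 0.05 in each of the first 2 comparisons, against 1074 and 641 at an unadjusted P under 0.05, and 1015 in the third. The median log2 fold change of the 7 genes was 0.10, −0.49 and −0.22 in the 3 comparisons, beside 0.049, 0.078 and 0.11 for all genes tested. The samples of the compared groups did not overlap for 3 higher and 3 lower genes of the 7 in heat-stressed against control oocytes, beside 31.6% and 23.2% of all genes tested. They did not overlap for 1 higher and 5 lower genes in NMN-supplemented against heat-stressed oocytes, beside 35.9% and 17.6%, and for 2 higher and 4 lower genes in NMN-supplemented against control oocytes, beside 43.5% and 26.4%. When the samples were scaled to the same nuclear FPKM sum, the genes with an unadjusted P under 0.05 in heat-stressed against control oocytes split into 332 higher and 487 lower in place of 598 and 476, and those with an adjusted P under 0.05 in NMN-supplemented against control oocytes into 242 higher and 313 lower in place of 583 and 432. Quantile normalization turned the split in NMN-supplemented against heat-stressed oocytes from 337 higher and 304 lower to 218 and 310. No scaling changed the sign of a fold change of the 7 genes.

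**Figure D3:**
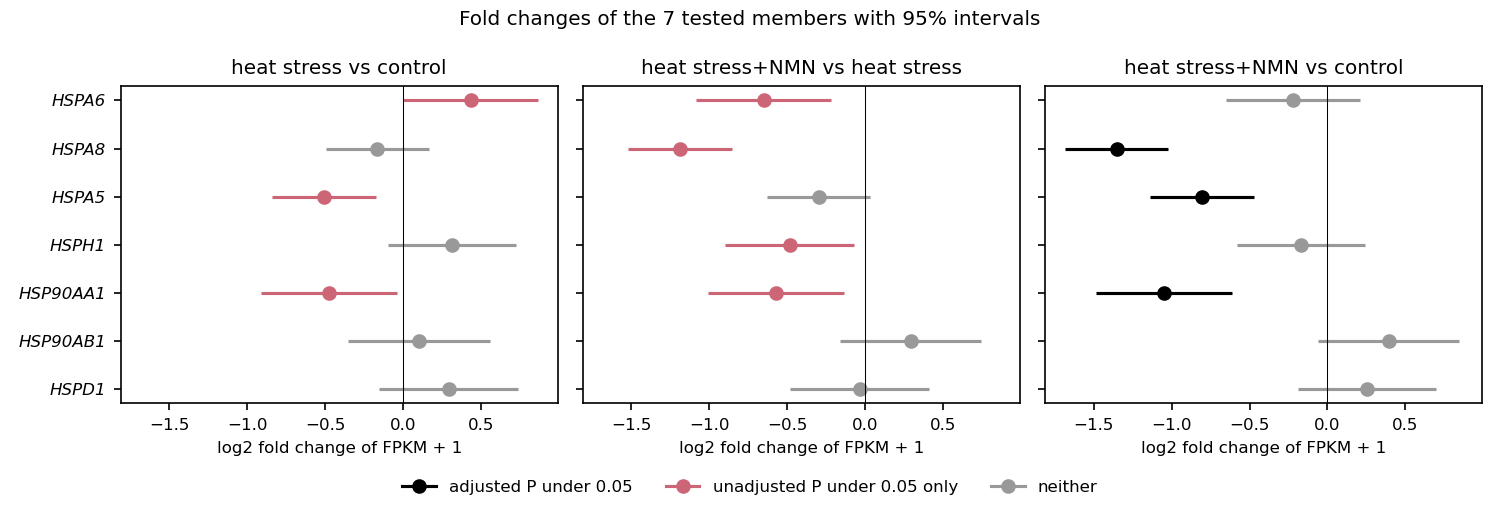
Log2 fold changes of FPKM + 1 for the 7 tested genes in the 3 comparisons, with 95% intervals from limma as horizontal lines. Black points have an adjusted P under 0.05, red points an unadjusted P under 0.05 only and grey points neither. HSPA8, HSPA5 and HSP90AA1 are black in NMN-supplemented against control oocytes.

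The samples themselves differed in ways that touch these values. Mitochondrial transcripts took 61.7 to 66.4% of the summed FPKM in control samples, 62.4 and 71.6% under heat stress and 74.2 and 74.7% with NMN, and 1 nuclear pseudogene took 13.9% in heat stress replicate 1 alone. Nuclear genes summed to 60072 and 62744 FPKM in control samples, 109125 and 57865 under heat stress and 61812 and 59499 with NMN. The pseudogene is part of the sum of heat stress replicate 1. The control and NMN-supplemented sums overlapped although their mitochondrial shares did not, and the effect of these shares on the authors' scaling was not tested. With the same nuclear sum in every sample, HSPA8, HSPA5 and HSP90AA1 changed by −1.34, −0.79 and −1.03 in NMN-supplemented against control oocytes (adjusted P in limma 0.0257, 0.0451 and 0.0364). The number of fragments is unknown, but from the steps of the lowest values 1 fragment was worth 0.865 to 1.37 times as much FPKM as in control replicate 1. The identity of the cells was checked by markers. All 14 oocyte markers were above 0, with summed levels of 3426 to 3649 FPKM in control, 3342 to 3349 in heat-stressed and 2896 to 3157 in NMN-supplemented samples. BMP15, MOS and GDF9 made up most of these sums. FIGLA and KIT stayed under 1 FPKM, as low as the cumulus and granulosa marker CYP19A1, which was also above 0 in all 6 samples. The sums of 15 cumulus and granulosa cell markers were 13.9 to 17.4, 7.71 to 10.7 and 5.39 to 11.5 FPKM, of which INHBA made up most (log2 fold change of −1.02 and unadjusted P of 0.0421 in limma in NMN-supplemented against control oocytes), while AMH, AMHR2 and INHA were listed at 0 in all 6 samples. The sums of 7 leukocyte and blood markers were at most 0.692 FPKM. Of 12 oocyte markers tested in NMN-supplemented against control oocytes, 7 were lower with an unadjusted P under 0.05, beside 15.7% of all genes, and 5 of them passed the test and fell, beside 9.17%, among them ZAR1 (−2.24), ZP3 (−1.26) and GDF9 (−0.94). The 5 include NPM2, which was at 0.361 and 0.170 FPKM with NMN. NPM2 reached the minimum of 1 FPKM only through the control and heat-stressed samples, which favours a fall with NMN. The 5 markers outside the 7 had no unadjusted P under 0.05, and the log2 fold change was positive for BMP15 (0.13), DPPA3 (0.28) and DAZL (0.032), of which BMP15 and DPPA3 did not overlap between the groups. Their part in the changes of the heat shock genes was not tested. Fewer cells of a type and less RNA per cell cannot be told apart in such samples.

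HSF1 is the main transcription factor of the heat shock response. Its level was 0.403 and 0.264 FPKM in the control samples, 0.116 and 0.265 under heat stress and 0.144 and 0.0862 with NMN. Control and heat-stressed samples overlapped, while both NMN-supplemented samples were below both control samples. HSF1, HSF2 and HSPA4 could be fitted with the minimum lowered to a mean of 0.1 FPKM, which let 11651 genes in. None of the 3 had an unadjusted P under 0.05 in limma in heat-stressed against control oocytes, beside 16% of these genes (8.99% lower), or in NMN-supplemented against heat-stressed oocytes, beside 9.96% (5.64% lower). For HSF1 the log2 fold change in NMN-supplemented against control oocytes was −0.26 (95% interval −0.50 to −0.011), with an unadjusted P of 0.0433 in limma beside 27.8% of these genes (14.5% lower) and an adjusted P of 0.166. HSF1 overlaps DGAT1, a gene of triglyceride synthesis on the other strand of chromosome 4, and the authors' table gives both 1 shared locus. The library kit does not mark strand, so reads of the overlap cannot be assigned to either gene.

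HSF2 binds the same elements as HSF1 and is known for its role in the germ line and in meiosis. It was measured at 0.144 and 0.437 FPKM in the control samples, 0.317 and 0.332 under heat stress and 0.160 and 0.231 with NMN. The 2 control samples enclosed all other values. No comparison gave an unadjusted P under 0.05, and in heat-stressed against control oocytes the log2 fold change was 0.047 with an interval from −0.27 to 0.36 in the fit of 11651 genes. Of 6 further genes listed for the factor family 3 were in the table, and HSF2BP, which encodes a protein that binds HSF2 and takes part in meiotic recombination, was the 1 tested, with no unadjusted P under 0.05.

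The 3 tested genes whose log2(FPKM + 1) was most like that of HSF1 over the 6 samples were LOC110258640 (Pearson's r = 0.992), LOC110259272 (r = 0.991) and LOC100628135 (r = 0.987). For HSP90AA1, the highest of the 10 genes by mean level, they were LOC110261291 (r = 0.994), LOC100738935 (r = 0.991) and LOC100125545 (r = 0.984). These values describe 6 samples that share their groups and depth, and were the highest among all genes tested.

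HSPA8 encodes HSC70, the constitutive HSP70 of the cytosol, which also drives chaperone-mediated autophagy and the uncoating of clathrin vesicles. It was measured at 40.1 and 46.3 FPKM in the control samples, 37.7 and 39.0 under heat stress and 15.0 and 17.6 with NMN. Both NMN-supplemented samples were far below the other 4. The mean in NMN-supplemented oocytes was 0.378 times that of controls, and HSPA8 fell by 1.35 on the log2 scale (SE 0.13, adjusted P = 0.0197 in limma). Against heat-stressed oocytes the log2 fold change was −1.19 (95% interval −1.52 to −0.86), with an unadjusted P of 0.000163 and an adjusted P of 0.192 in limma. Heat-stressed and control oocytes differed by −0.16 (interval −0.50 to 0.17), which did not pass the test. The adjusted P in NMN-supplemented against control oocytes was 0.104 without control replicate 2, 0.115 without NMN replicate 1 and 0.0892 without NMN replicate 2, with log2 fold changes of −1.25, −1.25 and −1.46. The gene lies on chromosome 9 (49982278 to 49986760, minus strand) and 2.48% of the 31-base words of its transcript also occur elsewhere in the genome, the longest shared stretch having 54 bases.

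HSPA5, also called BiP or GRP78, is the HSP70 of the endoplasmic reticulum and keeps the sensors of the unfolded protein response inactive. Its level was 41.6 and 48.4 FPKM in the control samples, 29.0 and 33.7 under heat stress and 25.6 and 24.9 with NMN. The 3 groups did not overlap and stood in the order control, heat stress, NMN from high to low. HSPA5 fell by 0.80 in NMN-supplemented against control oocytes (SE 0.13, adjusted P = 0.0237 in limma), to 0.562 times the control mean. In heat-stressed oocytes it was lower than in controls with a log2 fold change of −0.51 (interval −0.84 to −0.18), an unadjusted P of 0.0102 and an adjusted P of 0.139 in limma, and the unadjusted P became 0.0571 without heat stress replicate 1. The step from heat-stressed to NMN-supplemented oocytes was −0.30 with an interval from −0.63 to 0.033. Without control replicate 2, NMN replicate 1 or NMN replicate 2, the adjusted P in NMN-supplemented against control oocytes was 0.104, 0.118 and 0.108 in limma.

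HSPA6 is a strictly inducible HSP70 in human cells, where it is hardly present without stress. In the oocytes it was measured in every sample, at 5.13 and 4.57 FPKM in the control samples, 7.73 and 6.13 under heat stress and 3.47 and 4.64 with NMN. Both heat-stressed samples were above the other 4, and control and NMN-supplemented samples overlapped. The log2 fold change was 0.43 in heat-stressed against control oocytes (interval 0.0013 to 0.86), with an unadjusted P of 0.0495 and an adjusted P of 0.219 in limma. That unadjusted P was at the threshold, and it was 0.0846 without control replicate 1, 0.173 without control replicate 2 and 0.214 without heat stress replicate 1. From heat-stressed to NMN-supplemented oocytes the log2 fold change was −0.65 (interval −1.08 to −0.22), with an unadjusted P of 0.0106 and an adjusted P of 0.278 in limma. The unadjusted P became 0.0544 without heat stress replicate 1 and 0.0617 without NMN replicate 1. The single exon of HSPA6 shares 1.0% of its 31-base words with other places, the longest shared stretch having 53 bases. The locus of HSPA1L held the most matches. A further HSP70 gene, HSP70.2, lies wholly inside that locus, and matches to the 2 genes were not told apart.

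HSPH1 is an HSP110 that acts as nucleotide exchange factor of HSP70, and HSPA4 is its paralog with the same task. HSPH1 was measured at 1.40 and 1.49 FPKM in the control samples, 2.497 and 1.65 under heat stress and 1.12 and 1.22 with NMN. The groups did not overlap, and heat stress replicate 1 stood above all others. The log2 fold change was 0.32 in heat-stressed against control oocytes (unadjusted P = 0.107 in limma, and 0.0191 without heat stress replicate 2) and −0.49 in NMN-supplemented against heat-stressed oocytes (unadjusted P = 0.0280, adjusted P = 0.350). The latter P was 0.123 without heat stress replicate 1, 0.108 without NMN replicate 1 and 0.0768 without NMN replicate 2. HSPA4 was measured at 0.385 and 0.444, 0.335 and 0.327, and 0.425 and 0.588 FPKM in the same order of samples. It was thus lowest in the heat-stressed samples, and no comparison gave an unadjusted P under 0.05 in the fit of 11651 genes.

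HSP90AA1 encodes HSP90-alpha, the stress-inducible form of cytosolic HSP90. Its level was 60.0 and 57.5 FPKM in the control samples, 42.6 and 41.3 under heat stress and 23.5 and 33.1 with NMN. No groups overlapped, and the NMN-supplemented pair was the most spread. HSP90AA1 fell by 1.05 in NMN-supplemented against control oocytes (SE 0.17, adjusted P = 0.0237 in limma), to 0.481 times the control mean. In heat-stressed against control oocytes the log2 fold change was −0.48 (interval −0.91 to −0.041), with an unadjusted P of 0.0371 and an adjusted P of 0.200. In NMN-supplemented against heat-stressed oocytes it was −0.57 (interval −1.01 to −0.14), with an unadjusted P of 0.0188 and an adjusted P of 0.339. The first of these unadjusted P-values rose to between 0.0883 and 0.122 when any of the control or heat-stressed samples was left out. The second became 0.0673 and 0.0555 without heat stress replicate 1 or 2 and 0.0885 without NMN replicate 1. The adjusted P against controls was 0.0662, 0.105, 0.115 and 0.0892 without control replicate 1, control replicate 2, NMN replicate 1 and NMN replicate 2.

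HSP90AB1 encodes HSP90-beta, the constitutive form of cytosolic HSP90. It was measured at 29.4 and 35.6 FPKM in the control samples, 29.8 and 40.6 under heat stress and 41.9 and 43.6 with NMN. Control and heat-stressed samples overlapped, and both NMN-supplemented samples were above the other 4. The log2 fold change in NMN-supplemented against control oocytes was 0.39 with an interval from −0.062 to 0.85 (unadjusted P = 0.0785, adjusted P = 0.164 in limma), so it did not pass the test. Without heat stress replicate 2 the log2 fold change in NMN-supplemented against heat-stressed oocytes was 0.51 with an unadjusted P of 0.0350, in place of 0.29 and 0.166. Its annotated 3′ end overlaps SLC35B2 on the other strand of chromosome 7, and the authors' table gives both 1 shared locus, with the same limit on strand as for HSF1.

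HSPD1 encodes HSP60, the chaperonin of the mitochondrial matrix, which works with HSP10, the product of HSPE1. HSPD1 was measured at 2.09 and 1.92 FPKM in the control samples, 2.31 and 3.09 under heat stress and 3.06 and 2.17 with NMN. The control samples were below the other 4, and the heat-stressed and NMN-supplemented samples overlapped. The log2 fold changes were 0.29 (interval −0.15 to 0.73), −0.037 (−0.48 to 0.41) and 0.25 (−0.19 to 0.70) in heat-stressed against control, NMN-supplemented against heat-stressed and NMN-supplemented against control oocytes, and none had an unadjusted P under 0.05. HSPE1 is the head-to-head neighbour of HSPD1 on chromosome 15, with 520 bases between the annotated starts. Per length, its level was far above that of HSPD1, at 44.8 and 48.0 FPKM in the control samples, 31.7 and 30.3 under heat stress and 36.0 and 28.4 with NMN. Its log2 fold change in heat-stressed against control oocytes was −0.57 (unadjusted P = 0.00871, adjusted P = 0.137 in limma), opposite in sign to that of HSPD1.

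Ratios of FPKM + 1 within a sample depend little on how the sample was scaled where both genes are abundant. The log2 ratio of HSP90AA1 to HSP90AB1 was 1.01 and 0.68 in the control samples, 0.50 and 0.026 under heat stress and −0.81 and −0.39 with NMN. It stepped down from group to group without overlap. By FPKM the inducible form was above the constitutive one in the control samples and in heat stress replicate 1. The 2 were nearly equal in heat stress replicate 2, and the inducible form was below in the NMN-supplemented samples. HSP90AA1 is annotated incompletely and HSP90AB1 shares its locus with SLC35B2, so which of the pair is more abundant is uncertain. The log2 ratio of HSPA8 to HSPA5 was −0.054 and −0.062, 0.36 and 0.20, and −0.73 and −0.48 in the same order. It was highest in heat-stressed and lowest in NMN-supplemented samples. The log2 ratio of HSPH1 to HSPA4 was 0.79 and 0.79, 1.39 and 0.997, and 0.58 and 0.48, with the same order of groups. Both genes of that pair are low, and its differences between groups were 0.40, −0.66 and −0.26 in the 3 comparisons, against 0.72, −1.22 and −0.51 with a pseudocount of 0.1 FPKM. With 2 samples a group, an exact two-sided permutation test cannot give a P below 0.333, and it gave 0.333 for all 9 differences between groups.

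**Figure D4:**
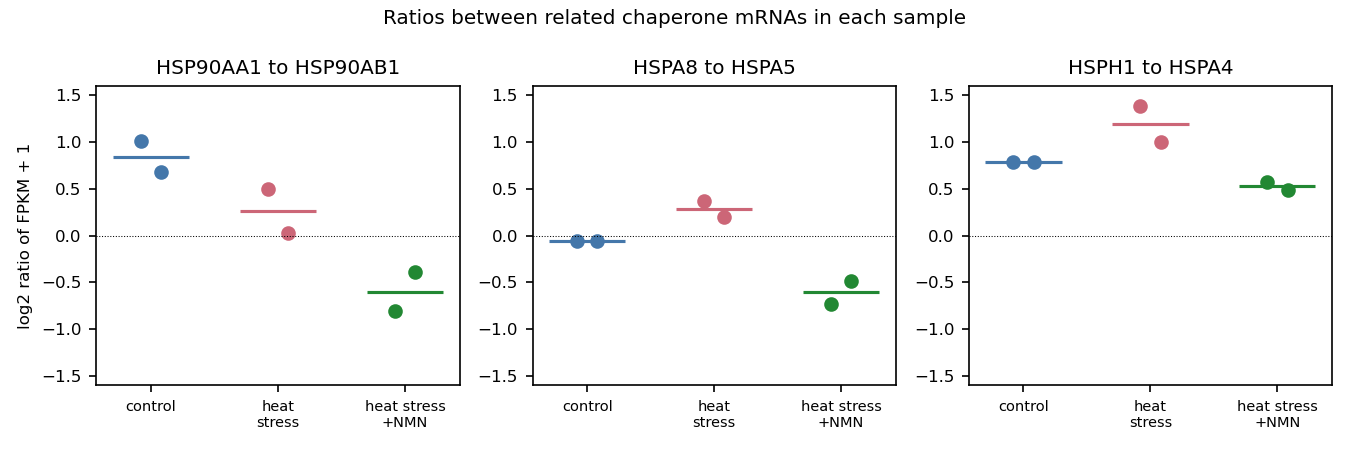
Log2 ratio of FPKM + 1 between 3 pairs of related genes, with 1 point per sample, a line at the mean of each group and a dotted line where both genes are equal. The ratio of HSP90AA1 to HSP90AB1 is above 0 in the control and heat-stressed samples, though near 0 in heat stress replicate 2, and below 0 in both NMN-supplemented samples.

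Around the 10 genes, lists of further chaperone genes were counted in the same fit. Of the other HSP70 and HSP110 genes, 7 of 10 in the table were tested. In heat-stressed against control oocytes HSP70.2 and HSPA1L were lower with an unadjusted P under 0.05, beside 10.1% of all genes. The other 5 had no unadjusted P under 0.05. HSP70.2, which RefSeq lists as HSPA1A and HSPA1B and which encodes the classical inducible HSP70, had the highest level of the heat shock genes described here. Its level was 582 and 574 FPKM in the control samples, 368 and 442 under heat stress and 449 and 431 with NMN. The log2 fold change in heat-stressed against control oocytes was −0.52 (unadjusted P = 0.00836, adjusted P = 0.137 in limma). The gene lies inside the locus of HSPA1L (38.1 ± 0.0427 FPKM in control, SD, n = 2), its close paralog on the other strand, and how reads were split between them is uncertain. In NMN-supplemented against control oocytes 1 of the 7 was higher and 2 lower with an unadjusted P under 0.05, beside 25.6% and 15.7% of all genes. None of them passed the test. HSPA1L (−0.40) and HSP70.2 (−0.39) were lower. HSPA4L, a further HSP110 gene, was higher with a log2 fold change of 0.64, an unadjusted P of 0.0201 and an adjusted P of 0.0699 in limma. It was under 1 FPKM in both control samples (0.878 and 0.747) and reached the minimum through the heated samples, which favours a rise against controls.

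Among the classical targets of HSF1 other than the 10 genes, 11 of 16 in the table were tested. In heat-stressed against control oocytes none was higher and 4 were lower with an unadjusted P under 0.05 (DNAJB1, HSPA1L, HSP70.2 and HSPE1), beside 12.7% higher and 10.1% lower of all genes. HSPA1L and HSP70.2 share a locus and may not be separate measurements. At the same threshold DNAJB1 was lower in NMN-supplemented against heat-stressed oocytes, beside 6.45% of all genes, and in NMN-supplemented against control oocytes, which share the controls, 4 were lower, beside 15.7%. DNAJB1 alone passed the test there, 1 of 11 beside 21.5% of all genes (9.17% lower). The medians of the log2 fold change were −0.30, 0.11 and −0.39, beside 0.049, 0.078 and 0.11 for all genes tested. DNAJB1 is the HSP40 that hands unfolded proteins to HSP70. It was measured at 27.1 and 25.4 FPKM in the control samples, 13.4 and 14.7 under heat stress and 10.9 and 10.2 with NMN. The groups did not overlap, and DNAJB1 fell by 1.24 in NMN-supplemented against control oocytes (SE 0.11, adjusted P = 0.0197 in limma). In heat-stressed against control oocytes its log2 fold change was −0.86, with an unadjusted P of 0.000373 and an adjusted P of 0.111. Of the small HSP genes 1 of 11 was tested, HSPB1 (23.5 ± 1.12 FPKM in control), with no unadjusted P under 0.05.

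Of 18 co-chaperones of HSP70 10 were tested, and in NMN-supplemented against control oocytes DNAJB1 fell, DNAJB4 rose (0.68, adjusted P = 0.0223 in limma) and DNAJB2 was lower with an unadjusted P of 0.0364. The 2 of 10 that passed stand beside 21.5% of all genes. DNAJB2 was under 1 FPKM in both NMN-supplemented samples (0.946 and 0.960). It reached the minimum through its control samples (1.44 and 2.33 FPKM), which favours a fall against them. Heat-stressed against control oocytes gave 1 higher and 2 lower genes with an unadjusted P under 0.05, beside 22.8% of all genes. In NMN-supplemented against heat-stressed oocytes 1 was lower, beside 6.45%. Of 18 listed co-chaperones of HSP90 the fit held 5. In NMN-supplemented against control oocytes CDC37L1, which is related to the kinase adaptor CDC37, rose (0.57, adjusted P = 0.0280 in limma). FKBP8, an immunophilin of the mitochondrial surface, fell there (−0.80, adjusted P = 0.0367 in limma). These 2 of 5 stand beside 21.5% of all genes. In heat-stressed against control oocytes, a comparison with the same control samples, CDC37L1 was higher (0.33, unadjusted P = 0.0258 in limma) and FKBP8 lower (−0.77, unadjusted P = 0.00631 in limma). At an unadjusted P under 0.05, 12.7% of all genes were higher there and 10.1% lower. In NMN-supplemented against heat-stressed oocytes none of the 5 had an unadjusted P under 0.05, beside 13.6%.

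Beside HSPA5, 13 of 21 further genes of the endoplasmic reticulum chaperones and the unfolded protein response were tested. In NMN-supplemented against control oocytes 3 were higher and 4 lower with an unadjusted P under 0.05, beside 25.6% and 15.7% of all genes, and 2 of 13 passed the test, beside 21.5%. CALR, the lectin chaperone calreticulin, fell by 1.61 (10.5 ± 2.55 FPKM in control and 2.81 ± 1.18 in NMN-supplemented oocytes, SD, n = 2, adjusted P = 0.0294 in limma). ERN1, the stress sensor IRE1, rose by 0.79 (1.78 ± 0.375 to 3.78 ± 0.108 FPKM, adjusted P = 0.0237). HSP90B1, the HSP90 of this compartment, was the only other HSP90 gene tested and had no unadjusted P under 0.05, with 9.03 ± 0.494 FPKM in control, 11.5 ± 4.05 in heat-stressed and 10.96 ± 1.24 in NMN-supplemented oocytes. In heat-stressed against control oocytes 2 of the 13 were higher and 1 lower, beside 12.7% and 10.1% of all genes. In NMN-supplemented against heat-stressed oocytes 1 was higher (ERN1) and 1 lower (CALR), beside 7.15% and 6.45%. Each of these counts is at an unadjusted P under 0.05.

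Beside HSPD1, 6 of 14 mitochondrial chaperones and proteases were tested. All 6 had a positive log2 fold change in NMN-supplemented against heat-stressed oocytes, with a median of 0.28 beside 0.078 for all genes, which is positive too. HSPE1 (0.044) and HSPA9 (0.079) were near 0, and their samples and those of CLPX (0.30) overlapped between the groups. GRPEL1 and GRPEL2, exchange factors of the mitochondrial HSP70, were higher with unadjusted P-values of 0.0437 and 0.0215 in limma. At an unadjusted P under 0.05, 7.15% of all genes were higher in that comparison. In NMN-supplemented against control oocytes 3 were higher and HSPE1 lower with an unadjusted P under 0.05, beside 41.3% of all genes, and GRPEL2 rose (0.48, adjusted P = 0.0426 in limma), 1 of 6 beside 21.5%. In heat-stressed against control oocytes GRPEL1 (−0.43, unadjusted P = 0.0136 and adjusted P = 0.149 in limma) and HSPE1 were lower with an unadjusted P under 0.05, beside 10.1% of all genes. Neither passed the test. HSPA9, the mitochondrial HSP70 itself, was at 7.06 ± 1.65, 4.84 ± 0.878 and 5.13 ± 0.234 FPKM in the 3 groups and had no unadjusted P under 0.05. Of the 11 chaperonin genes of the list with HSPE1 and the cytosolic TRiC complex, 5 were tested. Only HSPE1 had an unadjusted P under 0.05. It was lower in heat-stressed and NMN-supplemented than in control oocytes, beside 10.1% and 15.7% of all genes.

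The 7 list genes that passed the test in NMN-supplemented against control oocytes (DNAJB1, DNAJB4, CDC37L1, FKBP8, CALR, ERN1 and GRPEL2) depended on single samples, as did the 5 oocyte markers. None of the 12 passed without control replicate 2, NMN replicate 1 or NMN replicate 2, where the lowest adjusted P in limma was 0.104, 0.115 and 0.0892. Without control replicate 1, DNAJB1, ERN1 and ZAR1 passed. Leaving out a sample also moves genes across the minimum, and 10 of the 12 were tested with 1 or the other control sample left out and 11 without heat stress replicate 1. Without heat stress replicate 1 or 2 the fit left 9 and 10 of the 12, with FKBP8 and GRPEL2 lost in both. With a minimum of 0.1 FPKM only DNAJB1 and ZAR1 of the 12 passed, and with no minimum none did. Quantile normalization lost FKBP8 and GRPEL2, and the same nuclear sum lost CDC37L1, GRPEL2 and ZP4.

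**Figure D5:**
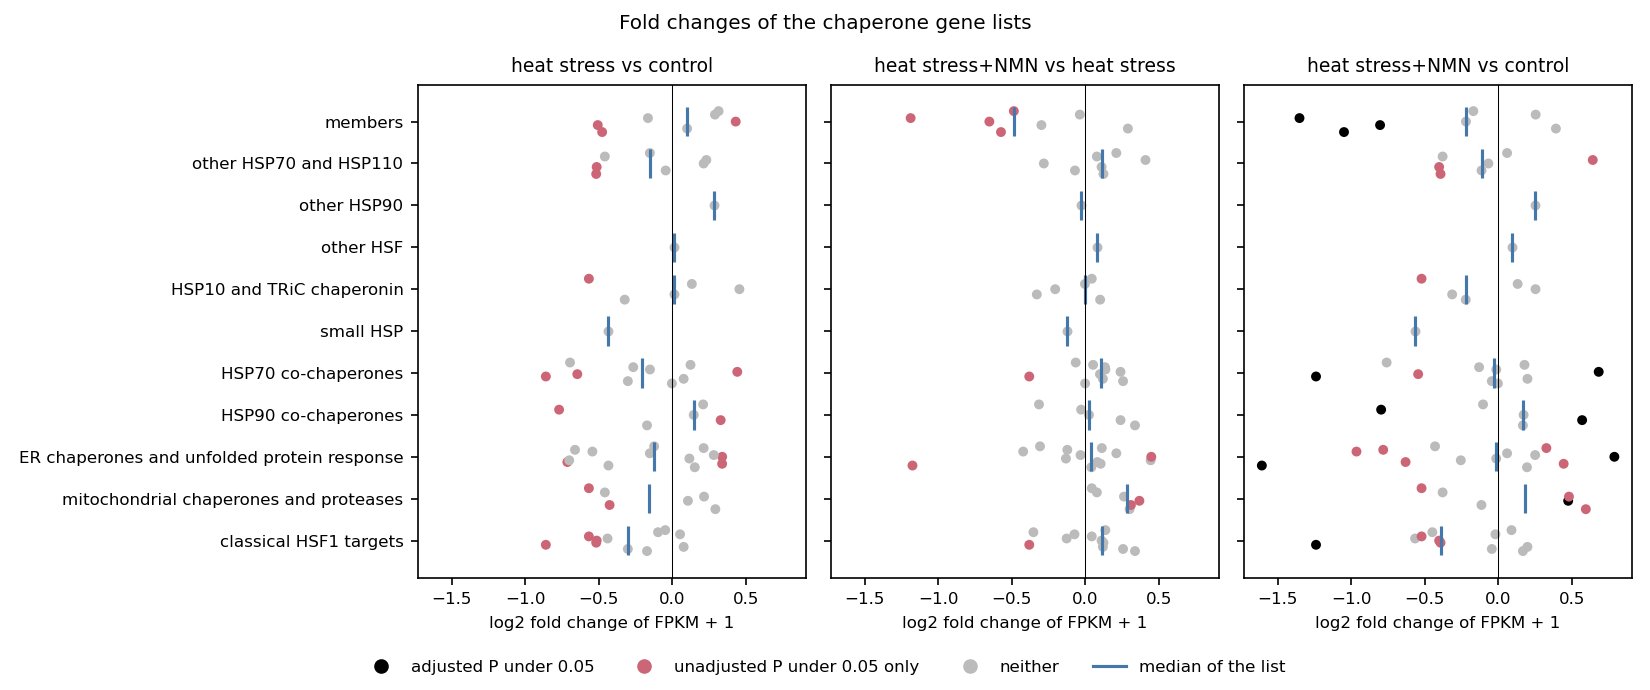
Log2 fold changes of FPKM + 1 for every tested gene of each chaperone list in the 3 comparisons, with 1 point per gene and a blue line at the median of the list. Black points have an adjusted P under 0.05, red points an unadjusted P under 0.05 only and grey points neither, and black points appear in NMN-supplemented against control oocytes alone.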

How the data were processed

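Oocyte RNA of 6 samples in 3 groups was sequenced with a library kit that does not mark strand. Per the methods, the authors trimmed the reads and aligned them to the pig genome (susScr11), and the submitters' processing notes name Cufflinks 2.2.1 with Cuffnorm and Cuffdiff. The authors deposited FPKM values per gene and sample. Their fold changes, P-values and q-values and 2 lists of differentially expressed genes were not used. Depth is unknown.

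FPKM were taken as log2(FPKM + 1), and genes with a mean of at least 1 FPKM (4713) were tested in one fit of 3 groups with limma 3.58.1 in R 4.3.3, with moderation, trend and Benjamini-Hochberg adjustment. Intervals are 95%. On simulated data for 4713 genes in heat-stressed against control samples, 89.8% of genes changed by 1 on the log2 scale and 5.07% of unchanged genes had an unadjusted P under 0.05. The simulated noise was independent between genes and samples, with no shift common to a sample. These shares therefore cannot be taken as those of the real samples. Coordinates and promoters came from RefSeq (Sscrofa11.1), in which all 29861 table symbols were found. Protein sequences were not used here.

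The 10 genes and the lists were chosen with earlier results of these data known. From each list up to 3 genes per comparison with the smallest unadjusted P under 0.05 could be named, and for HSF1 and the most abundant of the 10 genes the 3 most similar genes. HSPA9, HSPB1, HSP90B1 and HSF2BP were named after their values were seen. The alternatives were other pseudocounts, minimums and scalings, a block for the replicate number, fits of 2 groups only, no trend, and leaving out each sample.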

Additional observations from a re-analysis of the deposited data

How the results depend on the processing

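With the replicate number as a block, 445 genes in place of 1015 had an adjusted P under 0.05 in NMN-supplemented against control oocytes, and HSP90AB1 had an unadjusted P of 0.0439 there. Deviations of same-numbered samples correlated at −0.032 to 0.0080, so no shared effect of the number was seen. That cannot tell whether same-numbered samples were cultured together. The block changed no adjusted call of the 10 genes. The number of the 10 genes passing the test in that comparison was 3, and it was 1 with a minimum of 0.1 FPKM and 0 with no minimum, where 11651 and 20552 genes were tested. With a minimum of 0.1, 5 or no FPKM, all genes with an unadjusted P under 0.05 numbered 1865, 468 and 2388 in heat-stressed against control, 1161, 266 and 1557 in NMN-supplemented against heat-stressed and 3236, 791 and 3700 in NMN-supplemented against control oocytes, and those with an adjusted P under 0.05 in the last comparison 86, 546 and 0. Scaling to the same nuclear sum gave 555 there and 1 in heat-stressed against control oocytes, and no trend gave 1 in each of the other 2 comparisons. HSPA6 lost its unadjusted P under 0.05 in heat-stressed against control oocytes in 11 of 16 alternatives, the block included.

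When 1 sample was left out, the 10 genes with an unadjusted P under 0.05 numbered 0 to 3 in heat-stressed against control and 1 to 4 in NMN-supplemented against heat-stressed oocytes, and those passing the test in NMN-supplemented against control oocytes 0 to 3. All genes with an unadjusted P under 0.05 numbered 639 to 1003, 326 to 696 and 1236 to 1952 in the 3 comparisons, and those with an adjusted P under 0.05 0 to 3, 0 to 5 and 0 to 812. The log2 fold change of HSP90AB1 in heat-stressed against control oocytes ran from −0.12 to 0.32 and turned sign without control replicate 1 (−0.032) and without heat stress replicate 2 (−0.12). That of HSPD1 in NMN-supplemented against heat-stressed oocytes ran from −0.22 to 0.14 and turned sign without heat stress replicate 2 (0.12) and without NMN replicate 2 (0.14). The causes were not tested. Of the results of the 10 genes under all alternatives, 295 kept their direction and their side of an unadjusted P of 0.05, 24 lost it, 7 gained it and 4 reversed. Of those of the list and marker genes with an unadjusted P under 0.05, 647 kept it, 121 lost it and none reversed. Under the block, CALR, CDC37L1, FKBP8, GRPEL2 and ZP4 no longer passed the test. The ratios kept their sign, and the mean summed level of each group moved by less than its SD. With 2 samples a group, leaving 1 out moves a mean by less than its SD whatever the values. The summed level therefore says nothing on stability there. A pseudocount has no bearing on levels in FPKM.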
